A study of Homo sapiens with 34 samples.

Results

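H3K27ac, the acetylation of lysine 27 on histone H3, was followed across the genome in KELLY cells after silencing of RUNX1T1, a transcriptional co-repressor of the ETO family. KELLY is an established line from a human neuroblastoma in which MYCN is amplified. The cells used here expressed, when induced by doxycycline, a short hairpin RNA directed at RUNX1T1. They were exposed for 72 h to doxycycline or to the solvent DMSO, and H3K27ac was measured by chromatin immunoprecipitation and sequencing (ChIP-seq) in 3 libraries per treatment. These 6 samples are the members described here, out of 34 in the series, which covers 5 histone marks and their inputs. Both treatment groups carried the same hairpin, and doxycycline without a hairpin was not analysed here, so knockdown and exposure to doxycycline cannot be told apart. The labels do not say whether the 3 replicates came from separate cultures, so p-values measure the spread between these libraries, which may be technical. The assay was made on bulk cells, in which a mark in fewer cells and less of it per cell cannot be told apart.

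The members were all peak lists labelled H3K27ac, on chromosomes 1 to 22 and X. Peaks that shared at least 1 bp were merged over the 6 lists into 100382 regions, of which 28618 (28.5%) had a peak in every list. These common regions were compared. A promoter region lay within 1 kb of an annotated start site of a protein-coding gene (13339 regions), and the other 15279 were distal. Promoters made up 46.6% of the common regions, against 9.84% of the regions missing from at least one list. Deposited enrichment values depend on each library's depth and input, so a region was given its rank percentile within its own library, from 0 for the weakest of the common regions to 100 for the strongest. Differences are in percentile points, doxycycline minus DMSO. A gain is therefore a gain relative to the other common regions of that library, not an absolute one.

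H3K27ac is laid down by the acetyltransferases p300 and CBP and marks promoters and enhancers in use. ETO family proteins do not bind DNA by themselves but are brought to it by transcription factors and recruit histone deacetylases and further co-repressors. In neuroblastoma the noradrenergic identity of the cells is tied to large acetylated enhancers at a small circuit of transcription factors, among them HAND2 and GATA3, of which HAND2 is a basic helix-loop-helix protein that binds the E-box, CANNTG.

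Windows of 300 bases inside 4 distal regions are printed below on the plus strand of hg38, because later results turn on these regions. They hold the distal regions with the largest gain (SDK2) and the largest fall (DAOA) in rank, and called regions nearest to the receptor gene RET and to GATA3, a noradrenergic factor gene. Capitals mark CANNTG, the GATA-type letters AGATAA and the AP-1-type letters TGAGTCA, each on either strand and with overlaps allowed.
SDK2, rose, chr17:73532522-73532821: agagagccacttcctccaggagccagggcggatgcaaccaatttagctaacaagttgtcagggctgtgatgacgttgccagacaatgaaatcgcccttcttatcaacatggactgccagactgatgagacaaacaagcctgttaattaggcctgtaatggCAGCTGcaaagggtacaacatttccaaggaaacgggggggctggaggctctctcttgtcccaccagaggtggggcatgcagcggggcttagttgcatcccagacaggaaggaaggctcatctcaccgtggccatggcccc
DAOA, fell, chr13:105136137-105136436: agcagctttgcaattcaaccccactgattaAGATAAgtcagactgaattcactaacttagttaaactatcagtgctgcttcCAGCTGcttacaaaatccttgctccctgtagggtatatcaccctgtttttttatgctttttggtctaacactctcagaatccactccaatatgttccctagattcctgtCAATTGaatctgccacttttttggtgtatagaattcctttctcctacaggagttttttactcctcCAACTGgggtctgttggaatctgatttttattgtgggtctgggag
RET, rose, chr10:43070175-43070474: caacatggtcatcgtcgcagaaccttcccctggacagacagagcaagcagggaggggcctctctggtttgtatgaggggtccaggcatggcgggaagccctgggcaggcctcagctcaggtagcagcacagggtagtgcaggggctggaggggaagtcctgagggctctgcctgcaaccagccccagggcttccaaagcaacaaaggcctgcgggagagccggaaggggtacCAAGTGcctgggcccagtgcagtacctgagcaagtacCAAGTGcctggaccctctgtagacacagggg
GATA3, fell, chr10:8489714-8490013: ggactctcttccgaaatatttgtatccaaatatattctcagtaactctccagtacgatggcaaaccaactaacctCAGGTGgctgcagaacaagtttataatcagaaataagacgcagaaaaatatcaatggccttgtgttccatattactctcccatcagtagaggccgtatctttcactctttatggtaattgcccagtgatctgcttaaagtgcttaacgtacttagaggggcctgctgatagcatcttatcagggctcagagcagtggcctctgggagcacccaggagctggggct

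The DAOA window held 3 E-box matches and 1 GATA-type match, the RET window 2 E-box matches, and the SDK2 and GATA3 windows 1 each. Among 14430 windows of this length at common distal regions, 81.6% held an E-box, 19.8% the GATA-type letters and 7.1% the AP-1-type letters, so single matches are frequent. The fall at a promoter is illustrated by FBN1, the gene for the matrix protein fibrillin-1. The 250 bases before its start site, on the minus strand of GRCh38.p14 (RefSeq), held 1 E-box match. Of 35116 promoter windows of the same length, 61.8% held one.
FBN1 promoter, fell, chr15:48644971-48645220: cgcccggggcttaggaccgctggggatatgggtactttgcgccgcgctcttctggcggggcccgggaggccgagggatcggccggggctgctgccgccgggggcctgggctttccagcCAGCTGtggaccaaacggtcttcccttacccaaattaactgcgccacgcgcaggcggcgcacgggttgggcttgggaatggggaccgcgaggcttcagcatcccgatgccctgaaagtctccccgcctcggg

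The 6 lists held between 48171 and 71603 peaks. The depth at which peaks were called was 72.2 to 77.7 M reads in DMSO and 57.0 to 63.4 M in doxycycline, ranges that did not overlap, so depth and treatment cannot be told apart. Median fold enrichment of the common regions was 3.37 to 4.51 in DMSO and 3.66 to 4.90 in doxycycline. All 8 neuroblastoma marker genes, including PHOX2A, HAND2, GATA3, TH and DBH, had a common promoter region. Of 12 marker genes of blood, endothelial, fibroblast, epithelial, liver and Schwann cells, 2 did, while PTPRC, CD3E, PECAM1, COL1A1 and ALB did not. Neither of these 2 promoters was called as changed, and among 18 distal regions nearest to this list 1 fell, 592 kb from CDH5. Rank percentiles correlated between 0.908 and 0.951 within a treatment and between 0.853 and 0.889 across treatments, over 28618 regions whose values share input libraries.

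The first comparison asked where acetylation changed its standing after knockdown. Rank rose at 1218 common regions (4.26%) and fell at 1426 (4.98%), by limma with Benjamini-Hochberg adjusted p under 0.05 over all 28618 regions. At promoters the calls were mostly gains, with 523 rises and 289 falls, a risen share of 64.4% (exact 95% interval over regions 61.0 to 67.7%). At distal regions they were mostly falls, with 695 rises and 1137 falls, a risen share of 37.9% (35.7 to 40.2%). In every called region the 3 doxycycline values lay on one side of the 3 DMSO values. Such separation was found at 15.6% of all regions upwards and 15.3% downwards.

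The number of calls rested on single libraries. Without DMSO replicate 1 it was 110 rises and 132 falls, without DMSO replicate 3 463 and 598, without doxycycline replicate 1 218 and 356, without doxycycline replicate 2 700 and 966, and without doxycycline replicate 3 550 and 802. No called region changed the sign of its difference in any of these fits. With both libraries of number 2 left out, 2196 regions were called, against 0 without both of number 1 or of number 3. Replicates 1 and 3 had the same input read total within each treatment, 81.5 M in DMSO and 63.4 M in doxycycline. They appear to share an input, so the 3 values of a treatment are not fully independent. The part of this sharing in the calls was not tested. The balance of rises and falls rested on the reference set: when each region was ranked among all peaks of its list, the median difference moved to -2.09 points. The calls then became 55 rises and 173 falls at promoters and 59 and 575 at distal regions.

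Falls became more frequent with distance from genes. The share of regions that fell was 2.17% at promoters, 6.17% between 1 and 5 kb from a start site, 6.47% between 5 and 20 kb, 7.25% between 20 and 50 kb, 7.3% between 50 and 100 kb and 9.4% beyond 100 kb. The share that rose stayed between 3.92% at promoters and 5.24% beyond 100 kb. The median difference went from 1.17 points at promoters to -2.18 points beyond 100 kb. Median GC content went from 53% between 1 and 5 kb to 46.2% beyond 100 kb, and its part in this was not tested at each distance.

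**Figure D1:**
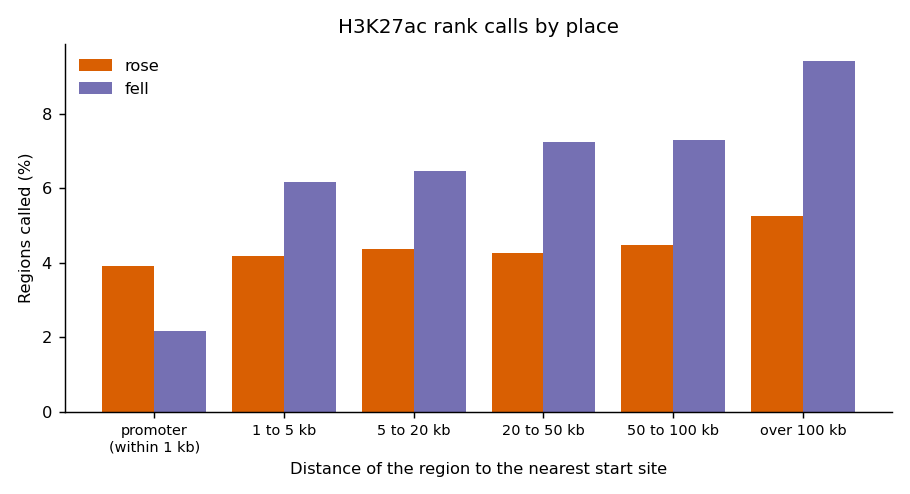
Percentage of common H3K27ac regions whose rank rose (orange) or fell (purple) with doxycycline (vertical axis) by the distance of the region to the nearest start site of a protein-coding gene (horizontal axis). Falls go from 2.17% at promoters to 9.4% beyond 100 kb, while rises stay between 3.92% and 5.24%.

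As 1 value per library, the mean percentile of promoter regions exceeded that of distal regions by 28.1, 29.4 and 26.5 points in DMSO replicates 1 to 3 and by 32.2, 32.0 and 29.6 points in doxycycline. All doxycycline values were above all DMSO values. The means were 28.0 ± 1.43 and 31.2 ± 1.46 points (SD, n = 3 each), a difference of 3.23 points (exact permutation p = 0.1, two-sided, adjusted 0.3 over 3 such values). With 3 libraries against 3, 0.1 is the smallest p this test can give. After the mean of regions of like base composition was subtracted, an alternative chosen after seeing the data, the difference was 1.04 points.

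**Figure D2:**
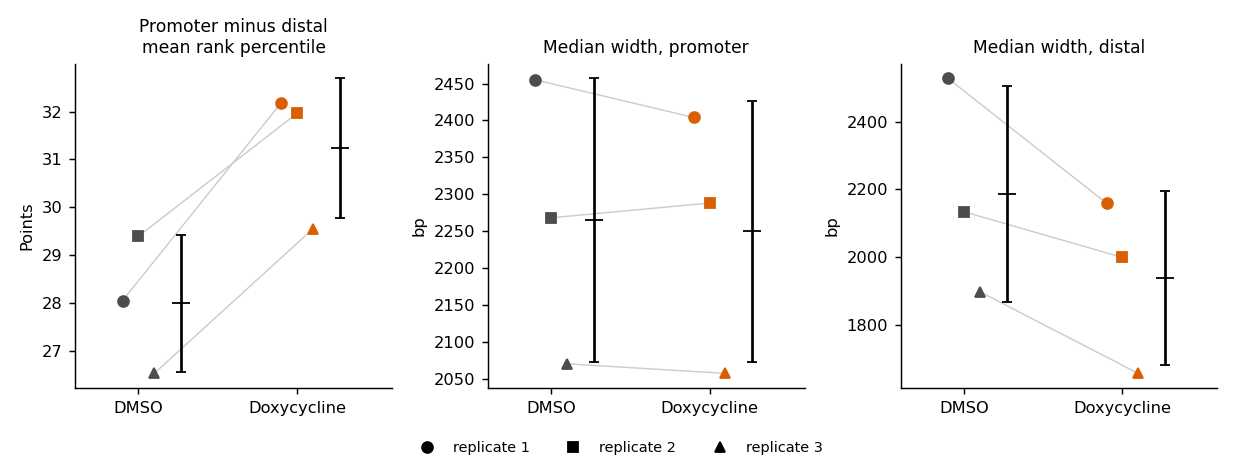
One value per library for the promoter minus distal mean rank percentile (points) and for the median width of promoter and of distal regions (bp), with mean ± SD beside the 3 libraries of each treatment and grey lines between same-numbered libraries. Only the first value separates the treatments, and the distal width is lower with doxycycline in each same-numbered pair.

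Base composition moved with the calls. GC content was taken in 500 bp at the centre of the stretch covered in all 6 lists, which 27594 regions had. Distal regions of 26 to 45% GC fell in 10.7% and rose in 3.94%, with a median difference of -3.11 points. Distal regions of 59.8 to 67.8% GC fell in 3.19% and rose in 4.84%, with a median of 1.31 points. At promoters the share of falls went from 5.42% at the lowest GC (26 to 45%) to 1.27% at the highest (67.8 to 89.6%), and that of rises from 4.13% to 3.5%. With each library's rank corrected for GC, promoters had 483 rises and 438 falls and distal regions 993 and 1164, so the risen shares were 52.4% and 46.0%. Most calls were retained, at 2354 of 2644.

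**Figure D3:**
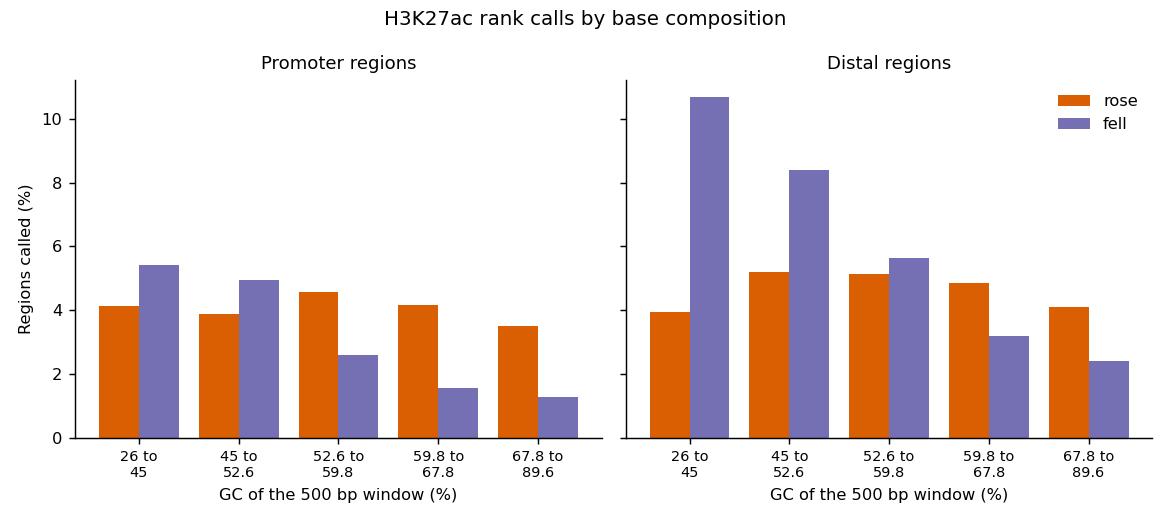
Percentage of promoter (left) and distal (right) regions whose rank rose (orange) or fell (purple), by GC content of the 500 bp window (%), in 5 bins of equal size over all regions. The share of falls decreases with GC in both places, from 10.7% to 2.42% at distal regions, while the share of rises stays between 3.5% and 5.19%.

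The distal region that rose most was intronic in SDK2, a sidekick adhesion molecule of synapses (chr17:73530561-73535171). Its percentile was 15.9, 14.7 and 2.39 in DMSO and 74.9, 70.1 and 73.3 in doxycycline, so it ranked low in each DMSO library and high in each doxycycline library. The difference was 61.8 ± 5.75 points (SE, limma adjusted p = 0.00445). Its deposited fold enrichment over input went from 1.98 to 2.74 in DMSO to 5.39 to 8.73 in doxycycline, and it was also called wider (log2 difference 1.58, limma adjusted p = 0.0344). This width call was not made when same-numbered libraries were paired (limma adjusted p = 0.088).

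The next distal gain lay 312 kb from TBX3, a T-box transcription factor gene, in intergenic sequence (chr12:114996600-115009021). It ranked at 21.7, 21.8 and 10.5 in DMSO and at 74.5, 80.2 and 71.0 in doxycycline, a difference of 57.2 points. The groups were far apart, with no DMSO value above 21.8. The other distal regions in this set lay near ASAP1, an Arf GTPase-activating protein (chr8:130462663-130466871, 52.3 points), KCNE4, a potassium channel subunit (chr2:223295890-223300225, 51.6 points), and within an intron of AUTS2, a gene of neurodevelopment (chr7:69860609-69869010, 51.5 points).

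At promoters the largest gain was at TMEM59L, a transmembrane protein gene (chr19:18612177-18614440, covering coding sequence and UTR). It ranked at 2.64, 16.7 and 3.49 in DMSO and 71.9, 60.2 and 56.5 in doxycycline, a difference of 55.3 ± 6.46 points (limma adjusted p = 0.0049). It was among the weakest promoters in 2 of the 3 DMSO libraries and above the middle of the ranking in all doxycycline libraries. The shared promoter region of GGN, a gene of male germ cells, and SPRED3, an inhibitor of Ras and MAPK signalling, followed at 52.0 points (chr19:38385218-38390714). BAALC rose by 50.2 points, HMCN2, the gene of the matrix protein hemicentin 2, by 49.8 points, and LPIN1, a phosphatidate phosphatase, by 49.5 points. LPIN1 went from 1.28, 4.23 and 3.88 in DMSO to 54.7, 50.9 and 52.4 in doxycycline.

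The largest promoter loss was at FBN1. Its promoter region (chr15:48644233-48646719) ranked at 61.4, 75.3 and 69.3 in DMSO and at 22.96, 6.79 and 23.3 in doxycycline, a difference of -51.0 ± 6.61 points (limma adjusted p = 0.00604). Fold enrichment there was 4.37 to 6.04 in DMSO and 2.33 to 3.08 in doxycycline. SCARB2, a lysosomal membrane protein, fell by 47.8 points, VPS13D, a lipid transfer protein, by 47.3, EXPH5, an effector of Rab27, by 47.0 and KIAA1217 by 46.4. In each of these 4 the highest doxycycline percentile, 19.7 at SCARB2, was below the lowest DMSO one, 48.8 at EXPH5. H3K4me3 was not in all 6 lists at these 4 regions, nor at those of HMCN2 and LPIN1 among the gains. It was in all 6 lists at 85.3% of all promoter regions. A promoter region is defined here only by an annotated start site within 1 kb, so these may not be promoters in use.

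The distal region that fell most was intergenic, 328 kb from DAOA (chr13:105135116-105137838). It ranked at 75.2, 58.7 and 74.1 in DMSO and at 10.4, 6.43 and 17.1 in doxycycline, a difference of -58.0 ± 6.36 points (limma adjusted p = 0.00445). A region overlapping a coding exon of SERINC5, a membrane protein that restricts retroviruses, fell by 56.7 points (chr5:80201032-80208215). Regions near HAS2, a hyaluronan synthase (-56.2 points), DPH6, an enzyme of diphthamide synthesis (-55.6 points), and in an intron of NOX5, an NADPH oxidase (-54.6 points), completed the set. At HAS2 the percentiles were 63.0, 71.5 and 61.4 in DMSO and 11.8, 9.22 and 6.35 in doxycycline. All 20 named regions stayed called when any 1 library was left out.

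**Figure D4:**
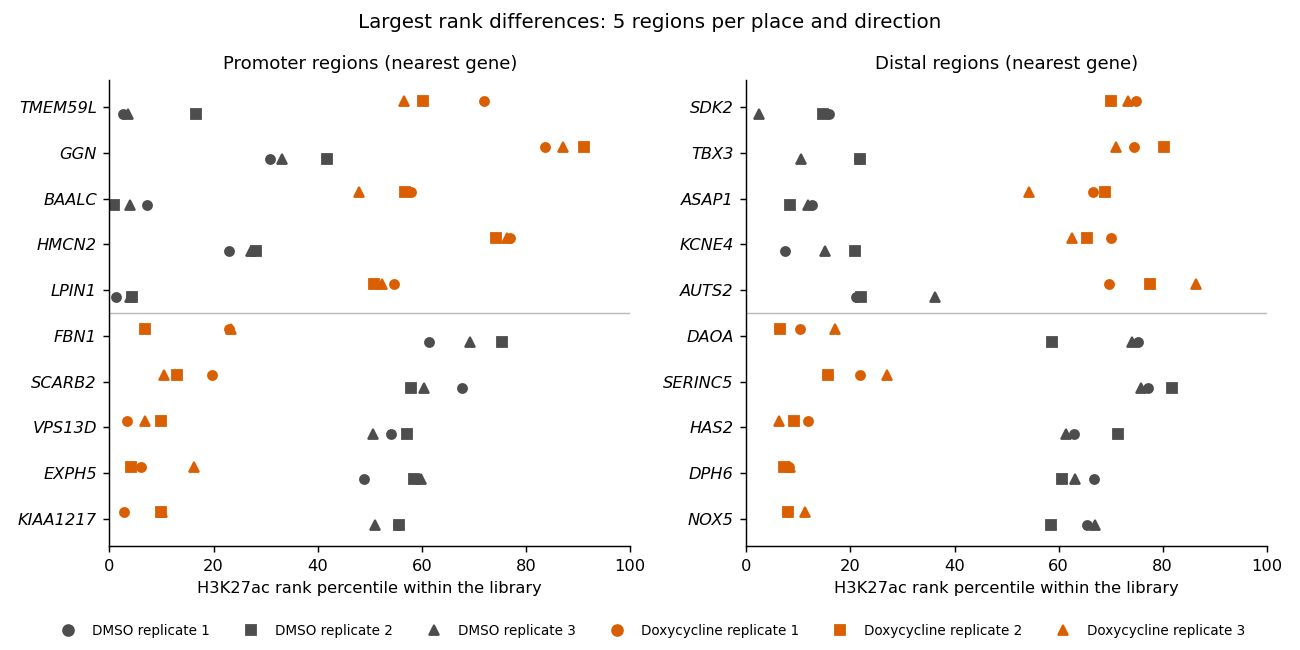
H3K27ac rank percentile within each library (horizontal axis, 0 to 100) of the 5 promoter and 5 distal regions with the largest gain (above the grey line) and loss (below it), labelled by nearest gene. Grey symbols are the 3 DMSO and orange symbols the 3 doxycycline libraries, shaped by replicate number, and no region shows an overlap of the treatments.

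Among the called regions, gains at distal sites started low. The median percentile of the 695 distal regions that rose was 18.0 to 20.01 in DMSO and 48.1 to 49.7 in doxycycline, while that of the 1137 that fell was 55.7 to 59.2 and 26.5 to 26.7. Promoters that rose went from 51.0 to 55.7 in DMSO to 74.5 to 76.8 in doxycycline. Mean width moved with rank: 614 of the 695 distal regions that rose were wider in doxycycline and 1065 of the 1137 that fell were narrower. At promoters 350 of the 523 rises were wider and 173 narrower, and 212 of the 289 falls were narrower and 77 wider. Rank and width come from the same peaks and are not independent.

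Width was compared as the second measure of the mark. Only 15 regions widened (0.0524%) and 80 narrowed (0.28%), 11 and 74 of them distal, by limma on log2 width with adjusted p under 0.05. Leaving out any 1 library gave 0 widened and 0 narrowed regions by limma, except that 9 and 37 were called without doxycycline replicate 3. In the fits that called none, 882 to 1786 regions were wider and 1739 to 3062 narrower at an unadjusted p under 0.05. At an unadjusted p under 0.05, 1367 were wider and 2782 narrower in the full set. When each library was centred on its own median width, 186 widened and 245 narrowed. The median width of distal regions was 2527, 2134 and 1898 bp in DMSO and 2159, 1999 and 1657 bp in doxycycline. Their difference of mean log2 width was -0.17 (two-sided exact permutation p = 0.5, adjusted 0.75), and the treatments overlapped. That of promoter regions was 2264 ± 193 and 2250 ± 177 bp (SD, n = 3; exact permutation p = 0.9, adjusted 0.9).

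The regions described next lead the width calls by size, and none of the 12 named for width was called when same-numbered libraries were paired (limma adjusted p = 0.088 for each). Among the regions that widened, the promoter region of DLG2, a scaffold protein of synapses (chr11:84163453-84166584), was 532, 414 and 454 bp wide in DMSO and 2319, 3132 and 2145 bp in doxycycline (log2 difference 2.43, limma adjusted p = 0.0307). The promoter of RACGAP1, needed for cytokinesis, widened from 2594 to 3433 bp to 11275 to 11655 bp. Its rank difference was -13.5 points (limma adjusted p = 0.221). In the other direction the region near SLC6A15, an amino acid transporter, narrowed from 4762 to 8167 bp to 242 to 697 bp (chr12:84726019-84734793). A region 196 kb from NTRK3, the receptor of neurotrophin 3, narrowed from 5427 to 6862 bp to 335 to 866 bp and fell in rank by 29.5 points. The promoter regions of WLS, needed for Wnt secretion, and LRRC4C, a ligand of netrin-G, narrowed by 2.66 and 2.61 on the log2 scale, while their rank differences were -5.18 and -7.46 points (limma adjusted p = 0.728 and 0.39).

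The targeted gene was examined for itself. RUNX1T1 had 3 common promoter regions and 7 distal ones, none called. Its strongest promoter region (chr8:92090563-92106016) ranked at 94.7, 93.2 and 92.3 in DMSO and 91.3, 87.7 and 89.0 in doxycycline, a difference of -4.08 ± 2.01 points (limma adjusted p = 0.231). A hairpin acts on messenger RNA, so acetylation at this gene does not measure the knockdown. MYCN had no common region. A peak near its start sites was present in all 3 DMSO lists, at a fold enrichment of 1.1 to 1.17, and in none of the doxycycline lists. The locus is amplified in these cells, and these enrichments are close to 1.

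None of the 29 promoter regions of 18 noradrenergic transcription factor genes was called, against 6.09% of all promoters, with differences from -14.1 to 7.39 points and a median of -0.35, against 1.17 over all promoters. HAND2, a basic helix-loop-helix factor of sympathetic neurons, ranked at 99.9 to 99.98 in DMSO and 99.3 to 99.8 in doxycycline. PHOX2A, a homeodomain factor of the same lineage, shared its promoter region with INPPL1. This shared region had a mean of 99.15 in DMSO and differed by -0.44 points, which cannot be assigned to PHOX2A alone. The scale ends at 100, so a rise could hardly be called at HAND2 or in this shared region. TCF4, a partner of HAND2, differed by -5.16 to 7.39 points over 7 promoter regions. Distal regions were less even, with 2 rises and 6 falls among 105 (7.62% called, against 12.0% of all distal regions) and a median of 0.33 points, against -0.98.

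A region 429 kb from GATA3, a zinc finger factor of sympathetic neurons (chr10:8487400-8494160), fell by 26.1 points and another 577 kb away by 20.5 points. GATA3 had 22 common distal regions, of which 2 fell and none rose. Of all distal regions 7.44% fell and 4.55% rose, and beyond 100 kb 9.4% fell, so the falls are close to the general share. SATB1 regions fell by 19.9 and 20.3 points, and SOX11, a factor of immature neurons, had regions that rose by 35.8 and 33.5 points and one that fell by 23.1.

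The receptor genes of neurotrophins and neuronal differentiation moved in both directions. No promoter region of the list rose, and those of ROBO2, an axon guidance receptor (-27.4 points), and STMN2, a regulator of microtubules in neurites (-9.98 points), fell among 28, a called share of 7.14% against 6.09% of all promoters. Of 74 distal regions 8 rose and 5 fell (17.6% called, against 12.0% of all distal regions), with a median of -1.93 points, against -0.98. The rises included 4 regions of RET, the receptor of GDNF family ligands, and 3 of ELAVL4, a neuronal RNA-binding protein.

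At RET the region 3.4 kb from the start (chr10:43053143-43073663) went from 23.5, 34.9 and 20.2 to 51.3, 50.5 and 52.5 (25.2 points, limma adjusted p = 0.0288). A region 131 kb away rose by 25.0 points and another 82.9 kb away by 9.78 points. The RET promoter region itself differed by 0.858 points. Its width was 20753 to 31906 bp in DMSO and 45739 to 51462 bp in doxycycline, without overlap but not called (log2 difference 0.872, limma adjusted p = 0.0949). The rank comes from a mean weighted by width, so it does not measure such a spread. These RET regions neighbour each other and are not independent sites. The distal falls were at 2 regions of ROBO2 and at 1 each of DPYSL3, NEFL and NTRK3.

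Among the co-repressors that work with the RUNX1T1 family, KDM1A, which encodes the demethylase LSD1, and RCOR3 were not called at their promoters, at -2.13 and 0.299 points. RCOR3 had a mean percentile of 98.9 in DMSO, which left almost no room for a rise. A distal region nearest to HDAC2, a histone deacetylase, fell by 29.2 points.

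**Figure D5:**
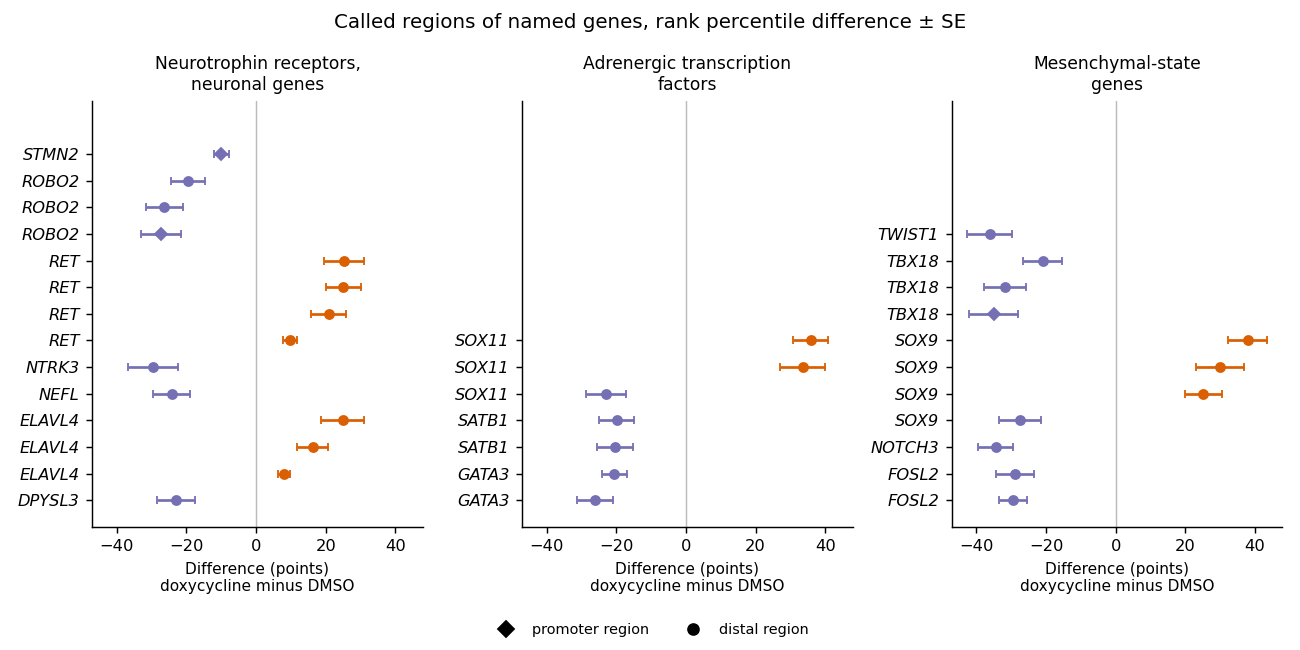
Difference in rank percentile (points, doxycycline minus DMSO) with its SE for called regions of genes named from 3 gene lists, labelled by gene, where diamonds are promoter regions and circles distal ones. The RET and ELAVL4 regions lie above 0, the GATA3, TBX18, FOSL2 and ROBO2 regions below, and SOX11 and SOX9 have regions on both sides.

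Genes of the mesenchymal state were less often present, since 11 of 22 had a common promoter region and those of PRRX1, YAP1, VIM, CD44 and AXL, among others, had none. The promoter region of TBX18, a T-box factor, fell by 35.0 points, from 54.8, 28.6 and 40.4 in DMSO to 1.75, 12.6 and 4.36 in doxycycline. Of 46 distal regions 3 rose and 7 fell (21.7% called, against 12.0% of all distal regions), with a median of -7.28 points, against -0.98. The 3 rises were nearest to SOX9, at 25.2, 29.98 and 37.9 points. The falls included a further SOX9 region (-27.5), FOSL2 (-29.0 and -29.6), TWIST1 (-36.2, inside HDAC9), TBX18 and NOTCH3.

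The remaining lists are given beside the same shares, 6.09% of all promoters and 12.0% of all distal regions called. At promoters MGA, a partner of MAX, rose by 19.5 points, and E2F1, a regulator of entry into S phase, fell by 12.3. The E2F1 region was 3021 to 4404 bp wide in DMSO and 4587 to 9620 bp in doxycycline, not called as wider (limma adjusted p = 0.2185). Its rank comes from a mean weighted by width, so the fall does not show less of the mark over the whole region. In the MYC network 25 distal regions gave 1 rise and 2 falls, at MYC (21.4 and -25.1 points) and MAX (-18.6). CDKN1A, the cyclin-dependent kinase inhibitor p21, had a distal fall of 25.1 points, and CCNE1 distal regions moved by 40.2 and -23.0 points. A region within CREBBP, the gene of the acetyltransferase CBP, fell by 28.3 points. Catecholamine genes had no promoter call among 12, and 2 rises and 4 falls among 32 distal regions, including NPY in both directions. Ribosomal protein genes had 1 promoter call in 33, RPS20, which fell by 16.9 points. Their 40 distal regions gave 7 rises and 1 fall, with a median of 4.05 points, where 4.55% of all distal regions rose and 7.44% fell with a median of -0.98. Most of these rises were nearest to RPS24, at 38.9, 46.7 and 297 kb, or to RPLP1, at 277 and 281 kb. The fall was also nearest to RPLP1. Regions that share a locus are not independent sites. Integrated stress response genes had no call among 17 promoter and 15 distal regions.

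Across the 12 lists 64 regions were called. A SOX11 fall and an ELAVL4 rise were not called when same-numbered libraries were paired (limma adjusted p = 0.0542 and 0.0584). With GC correction 4 of 62 were not: 1 each near SATB1, TBX18, NPY and ROBO2.

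Some genes held several called distal regions, and these were chosen after their values were seen. PLXNA4, a semaphorin co-receptor, had 6 rises among 24 distal regions and UACA 6 among 11, SDK2 5 among 21. Of all distal regions 4.55% rose and 7.44% fell. On the other side, S1PR1, a receptor of sphingosine 1-phosphate, had 6 falls among 9 and PKDCC 5 falls among 17. Other genes were mixed, such as PLXNA2 with 3 rises and 5 falls among 40 and BCOR with 5 rises and 1 fall among 32. Neighbouring regions of one gene share a locus and are not independent.

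The other marks were read at the same regions, with no test, because they were called against the same input libraries. H3K4me1, a mark of enhancers, had peaks in all 6 lists at 96.5% of the distal rises and 95.9% of the distal falls, against 92.2% of all distal regions. Its mean percentile went from 56.3 in DMSO to 70 in doxycycline at the rises, and from 68.8 to 52.3 at the falls. H3K4me2 peaks were present in all 3 DMSO libraries at 56.4% of distal rises and in all 3 doxycycline libraries at 79%, while at distal falls the shares were 75.9% and 60.6%. At promoters the mean H3K4me3 percentile went from 52.2 to 67.2 at the rises and from 54.9 to 41.5 at the falls. H3K27me3 was in all 6 lists at under 3% of called regions, 2.68% of promoter rises being the highest share. TMEM59L, the promoter with the largest gain, was one of these, with a mean H3K27me3 percentile of 94.3 in DMSO and 96.5 in doxycycline.

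Single regions did not all follow this. At FBN1 the mean H3K4me2 percentile was 64.6 in DMSO and 96.3 in doxycycline, opposite to its H3K27ac, and its H3K4me3 percentile was 50.4 and 55.6. At the SDK2 region H3K4me2 went from 15.7 to 72.2 and H3K4me1 from 89.4 to 97.1. At the DAOA region H3K4me1 went from 85.9 to 30.3, and the other marks were not in all 6 lists.

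Sequence letters were counted in the 500 bp windows, described without a test because GC content differed between the sets. The GATA-type letters AGATAA were in 29.8% of all distal windows, 30.5% of those that rose and 42.5% of those that fell. Median GC was 49.4%, 50% and 46%. Among windows of 45 to 52.6% GC the shares were 31.9%, 35.7% and 42.7%, and among those of 52.6 to 59.8% they were 17.6%, 18.9% and 26.1%. The regions that fell thus held these letters more often than all distal regions in both of these GC ranges. The AP-1-type letters TGAGTCA were in 11.2% of all distal windows, 18.3% of those that rose and 9.07% of those that fell. The E-box CAGGTG was in 32.1%, 40.1% and 24%, and the E-box CATCTG in 39.1%, 44.2% and 37.5%. A match says only that these letters are present.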

How the data were processed

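H3K27ac peak lists of 6 KELLY libraries were analysed, grouped and numbered by the labels. The authors aligned reads to hg38 with Bowtie2, kept mapping quality 30 or more, and called peaks for each library against an input with MACS2 2.1.1.20160309 in broad mode (q 0.05, weaker regions linked at 0.1), per the file headers. The headers treat reads of 101 bp as single-ended, although the study describes paired reads, and replicate 3 appears to share the input of replicate 1, as read totals are the same. The deposited pileup is fragment coverage (signal), the deposited fold enrichment is a ratio to the local input by the authors' peak caller, and −log10 p-values and −log10 q-values were deposited as MACS2 gave them. MACS2 brought ChIP and input to the size of whichever was smaller, so lists called at lower depth can hold fewer weak peaks and narrower regions. Lists of the other 4 marks were read only at these regions.

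Peaks sharing 1 bp were merged. Per library, a region's fold enrichment was the mean of its peaks weighted by width, ranked among the 28618 common regions; width was the covered length. Rank percentiles and log2 widths were fitted with limma 3.58.1 in R 4.3.3 (empirical Bayes with trend, no replicate block) and adjusted by Benjamini-Hochberg. Values with 1 number per library were tested by exact two-sided permutation over 20 assignments. Places and names came from GENCODE release 44 (19970 protein-coding genes). Intervals on shares of calls cover counting error over regions only, not the spread between libraries. Other steps used python 3.11.15 with pandas 2.3.3 and pysam 0.24.0. The limma step was tested on simulated data.

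Deviations from the group means correlated between same-numbered libraries in all 3 pairs for rank (0.177, 0.157 and 0.251), which is the source of the pairing used as an alternative; the labels give the numbers but no shared batch. For width the values were 0.217, 0.062 and 0.291.

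Named regions were the 5 largest rank differences, and 3 largest width differences, per direction and place among called regions with no overlap of the groups, plus called regions of 12 gene lists and genes the study names for its model. Members, lists and tests were chosen with earlier results of these data known. Alternatives were the replicate block, q 0.001 or less, lists of equal length, each library left out, leaving out 5 Mb either side of MYCN, other rank and width measures and a 2.5 kb promoter; GC correction (means of 50 bins) and leaving out both libraries of a number were added after seeing the data. RUNX1T1 binding and expression were not analysed here, and some list members are not reported here.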

Additional observations from a re-analysis of the deposited data

How the results depend on the processing

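Rank calls, 1218 rises and 1426 falls, stayed within 1.5 times under the replicate block (1435 and 1676), GC correction, equal list lengths, the highest peak, normal scores, no trend and without the MYCN flanks. Pileup gave 1983 and 2299, q 0.001 or less 694 and 898, single-peak regions 708 and 887, and ranks within whole lists 114 and 748. Leaving out 1 library gave 110 to 1373 rises and 132 to 1333 falls. Without both libraries of number 1 or of number 3, limma gave 0 and 0, with 1810 and 2017, and 2776 and 3035, at an unadjusted p under 0.05. Without both of number 2 it called 2196 regions. These fits hold 2 libraries a group. The signs of the 2644 called regions were kept in the other fits of the same regions, except 35 with pileup and 2 with the highest peak.

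The risen share of promoter calls (64.4%) was 52.4% with GC correction, 51.9% with GC correction and the replicate block, 55.4% with pileup, 24.1% with whole-list ranks, and 52.3 to 73.4% without 1 library. That of distal calls (37.9%) was 46.0%, 44.8%, 42.2% and 9.31% in the same order, 33.4% at q 0.001 or less, 34.5% without both libraries of number 2, and 33.1 to 37.0% without 1 library. The cause was not tested.

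Widened and narrowed counts (15 and 80) were 0 and 0 under the replicate block by limma (2243 and 3421 at an unadjusted p under 0.05), where the numbers pair only as a hint: not every library correlated best with its own number. They were 44 and 157 with equal list lengths, 31 and 134 by span, 186 and 245 centred on the library median, 28 and 74 at q 0.001 or less, 6 and 69 without trend, 0 to 9 and 0 to 37 without 1 library, and 0 and 0 by limma without both libraries of any number (632 to 1708 and 1810 to 2501 at an unadjusted p under 0.05). The log2 difference of median promoter width was 0.051 without DMSO replicate 1 and 0.054 without doxycycline replicate 3, in a range of -0.072 to 0.054. The promoter minus distal difference (2.50 to 4.07 points without 1 library) and the distal width difference (-0.27 to -0.063) kept their signs; sign flips over the pairs gave p = 0.25, the smallest that the exact test over 8 can give. The replicate block changed no call of the 20 rank regions named for size, and lost all 12 named for width. Depth differs with treatment, and no read counts per region were used.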
